A study of Arabidopsis thaliana with 19 samples.

Results

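The genes described here encode the seed heat stress transcription factor HSFA9, the chaperone HSP101 and 8 small heat shock proteins, which together are 10 of the 21313 genes measured in dormant Arabidopsis thaliana seeds on 19 arrays. They were chosen as a family by their AGI codes, not by their values, but with earlier results of these data known. Each of the 10 had a row in the table. Seeds of 5 genotypes were compared, all of them dormant, taken as whole seeds and imbibed for 24 h in water. Ler, the wild type, and NILDOG1 were measured in 5 replicates each, and NILDOG2, NILDOG3 and NILDOG6 in 3 each. Every near-isogenic line (NIL) carried an introgression at a Delay of Germination (DOG) locus, from the accession Cvi in the first 3 lines and from Kas-2 in NILDOG6, in an otherwise Ler background, so that a line could differ from Ler in any gene of its introgressed segment. In the study's germination tests NILDOG2 was less dormant than Ler, while NILDOG1, NILDOG3 and NILDOG6 were more so. A replicate was a bulk of 8 plants, and p-values measure the spread between such bulks.

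Seeds make heat shock proteins without any heat. HSFA9 is a heat stress transcription factor of the maturing seed that acts downstream of the maturation regulator ABI3 and activates genes for HSP101 and small heat shock proteins. HSP101 is a disaggregase that pulls proteins out of aggregates, and small heat shock proteins hold unfolded proteins in a soluble state. The small proteins are grouped by where they work, in the cytosol (classes I and II), the chloroplast, the endoplasmic reticulum and the mitochondrion.

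Levels are log2 values after Robust Multi-array Average (RMA) normalization, so a difference of 1 is a doubling, and the levels of 2 different genes cannot be set against each other. In a bulk of whole seeds, fewer cells of a type and less RNA per cell cannot be told apart. The labelled tissue was checked against 9 seed markers (storage proteins, oleosins and EM proteins), whose log2 values were between 12.07 and 14.61 in every array, and against CA1, the 1 measured marker of photosynthetic tissue out of 5 listed, at 3.18 to 3.83. This is a rough check, because a value also depends on the probes. The array labelled NILDOG6 replicate 1 stood apart. Over 11 genes of chromosome 3 that separated NILDOG6 replicates 2 and 3 from Ler, its median position was 0.00936 on a scale with the Ler mean at 0 and the mean of replicates 2 and 3 at 1, and the NILDOG6 results are therefore given with and without it.

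With all arrays, the NILDOG2 mean was the lowest of the 5 genotypes in 10 of 10 genes, and the NILDOG3 mean was the highest in 9 of 10, HSP18.2 being highest in NILDOG6. When NILDOG6 replicate 1 was left out, the NILDOG6 mean exceeded the NILDOG3 mean in 5 of the 10. The genes moved together over the arrays, with a median Pearson's r of 0.80 between pairs. These counts are therefore not 10 separate observations. The gene for the endoplasmic reticulum protein, ATHSP22.0, spread the most, and its level in NILDOG2 was 12.8-fold below that in NILDOG3. None of the 10 genes passed the test against Ler in any NIL, and the replicates of a genotype lay far apart for many of these genes. The median SD over the 10 genes was 0.81 in Ler, 0.73 in NILDOG1, 0.35 in NILDOG2, 0.20 in NILDOG3 and 0.77 in NILDOG6.

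**Figure D1:**
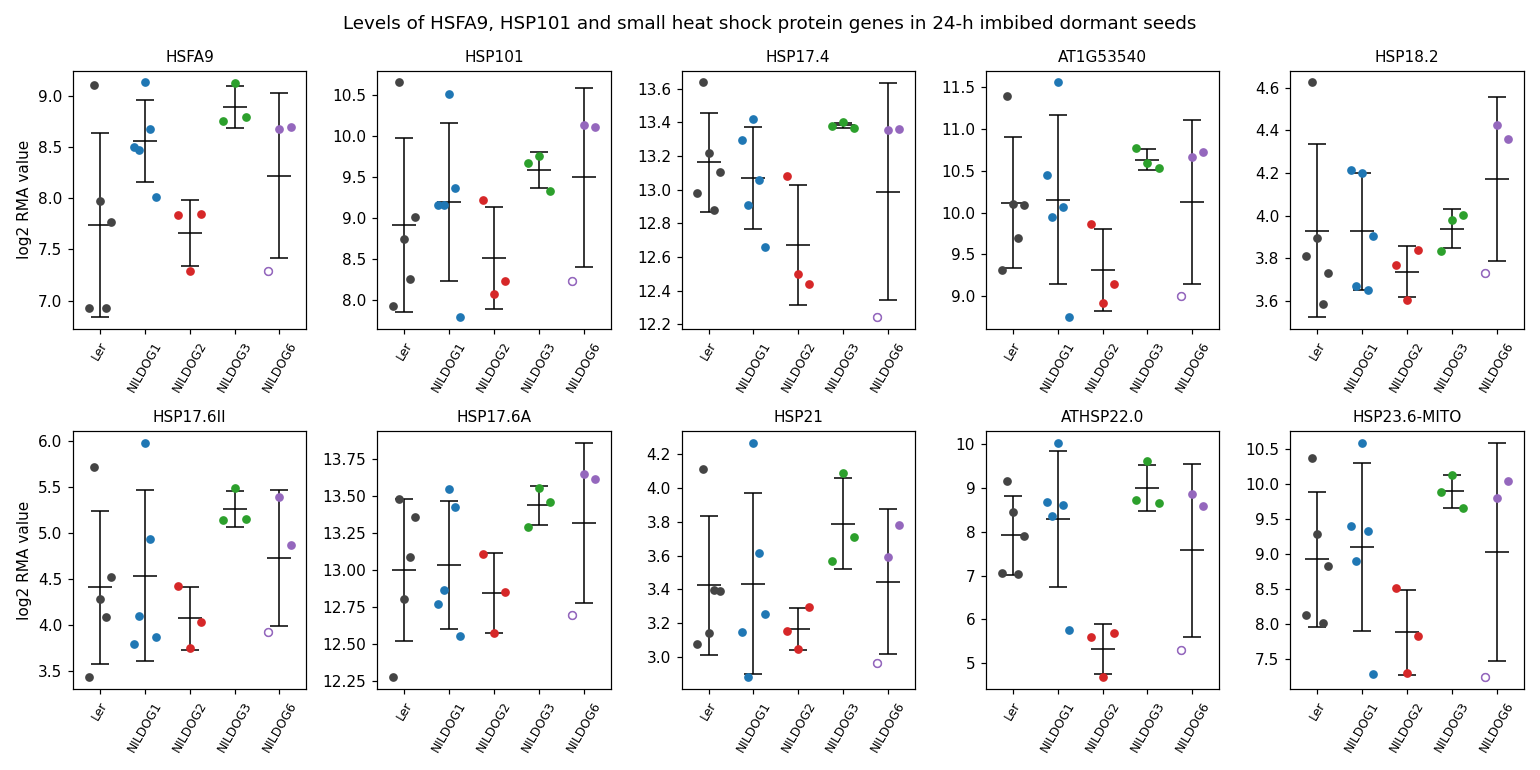
Levels of the 10 genes as log2 RMA values (y axis, with its own scale in each panel) in the 5 genotypes (x axis); points are arrays, the open point is the array labelled NILDOG6 replicate 1, and bars are the mean and SD (n = 5 for Ler and NILDOG1, n = 3 otherwise). For ATHSP22.0 the 3 NILDOG2 arrays sit between 4.68 and 5.70, below all Ler arrays.

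HSFA9 (AT5G54070), the regulator, lies on chromosome 5. Its level was 6.93, 9.10, 7.97, 6.93 and 7.76 in Ler replicates 1 to 5, a mean of 7.74 ± 0.90 (SD, n = 5). In NILDOG1 it was 8.50, 8.47, 9.13, 8.68 and 8.01, a mean of 8.56 ± 0.40 (SD, n = 5). Ler replicate 2 was close to the highest NIL arrays, and the other Ler arrays lay below every NILDOG1 array. In NILDOG2 it was 7.84, 7.29 and 7.85, in NILDOG3 8.75, 9.12 and 8.79, and in NILDOG6 7.29, 8.68 and 8.69. NILDOG3 was above NILDOG2 and above NILDOG6 in every array, and NILDOG2 was below NILDOG1 in every array. The NILDOG3 mean of 8.89 ± 0.20 (SD, n = 3) exceeded the Ler mean by 1.15 (SE 0.39, 95% confidence interval 0.32 to 1.97), which did not pass (limma, adjusted p = 0.128). Without Ler replicate 2 that difference was 1.49 and passed (limma, adjusted p = 0.00923), as did a NILDOG1 difference of 1.16 (limma, adjusted p = 0.0306), where 6.90% and 3.2% of all genes were called. The NILDOG6 difference was 0.48 with replicate 1 and 0.94 without it (SE 0.39 and 0.40), and neither passed (limma, adjusted p = 0.554 and 0.157).

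HSP101 (AT1G74310), the disaggregase, was at 7.92, 10.65, 8.74, 8.25 and 9.01 in Ler replicates 1 to 5. In NILDOG1 it was at 9.15, 9.15, 10.51, 9.37 and 7.79. Within each of these genotypes the lowest and highest array differed more than any pair of genotype means did. In NILDOG2 the values were 9.22, 8.07 and 8.24, in NILDOG3 9.67, 9.75 and 9.33, and in NILDOG6 8.24, 10.14 and 10.11. The mean difference from Ler was 0.28 in NILDOG1, -0.41 in NILDOG2, 0.67 in NILDOG3 and 0.58 in NILDOG6 (SE 0.49, 0.57, 0.57 and 0.57). Without NILDOG6 replicate 1 the NILDOG6 difference was 1.21 (SE 0.59; limma, adjusted p = 0.215), and without Ler replicate 2 the NILDOG2 difference turned to 0.03.

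Among the cytosolic class I genes, HSP17.4 (AT3G46230) was at 12.98, 13.64, 13.22, 12.88 and 13.11 in Ler and at 13.29, 12.91, 13.42, 13.06 and 12.66 in NILDOG1. It was at 13.08, 12.50 and 12.44 in NILDOG2, 13.38, 13.40 and 13.36 in NILDOG3, and 12.24, 13.36 and 13.36 in NILDOG6. The 3 NILDOG3 arrays agreed closely, with an SD of 0.02, and lay above all NILDOG2 arrays and narrowly above all NILDOG6 arrays. HSP18.2 (AT5G59720) had genotype means of 3.93 ± 0.40 in Ler and 3.93 ± 0.27 in NILDOG1 (SD, n = 5 each), and of 3.74 ± 0.12 in NILDOG2, 3.94 ± 0.09 in NILDOG3 and 4.17 ± 0.38 in NILDOG6 (SD, n = 3 each). It had the narrowest range of the 10 over the 19 arrays, 1.04, and was the only 1 of the 10 whose NILDOG2 and NILDOG3 arrays overlapped. The differences from Ler lay between -0.49 and 0.22 for HSP17.4 and between -0.19 and 0.24 for HSP18.2, and those of NILDOG6 without replicate 1 were 0.20 and 0.46 (limma, adjusted p = 0.621 and 0.194).

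AT1G53540, a small heat shock protein gene with no symbol in the table of names, was at 9.31, 11.39, 10.10, 9.70 and 10.09 in Ler and at 10.45, 9.95, 11.55, 10.06 and 8.75 in NILDOG1. It was at 9.86, 8.92 and 9.15 in NILDOG2, 10.77, 10.59 and 10.53 in NILDOG3, and 9.0, 10.67 and 10.73 in NILDOG6. Every NILDOG3 array was above every NILDOG2 array, while the Ler and NILDOG1 arrays overlapped both. Its NILDOG2 difference from Ler was -0.81 (SE 0.50; limma, adjusted p = 0.839), and its NILDOG6 difference was 0.01 with replicate 1 and 0.58 without it (limma, adjusted p = 0.993 and 0.543).

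HSP17.6II (AT5G12020) and HSP17.6A (AT5G12030) are class II genes on chromosome 5. HSP17.6II ran from 3.43 in Ler replicate 1 to 5.98 in NILDOG1 replicate 3, with genotype means of 4.41 ± 0.84 in Ler, 4.54 ± 0.93 in NILDOG1 (SD, n = 5 each), 4.07 ± 0.34 in NILDOG2, 5.26 ± 0.20 in NILDOG3 and 4.73 ± 0.74 in NILDOG6 (SD, n = 3 each). HSP17.6A ran from 12.28 in Ler replicate 1 to 13.65 in NILDOG6 replicate 2, with means of 13.00 ± 0.48 in Ler, 13.03 ± 0.43 in NILDOG1 (SD, n = 5 each), 12.85 ± 0.27 in NILDOG2, 13.44 ± 0.13 in NILDOG3 and 13.32 ± 0.54 in NILDOG6 (SD, n = 3 each). For both genes every NILDOG3 array was above every NILDOG2 array. Against Ler the NILDOG3 differences of 0.85 for HSP17.6II and 0.44 for HSP17.6A did not pass (limma, adjusted p = 0.371 and 0.447). The NILDOG6 differences from Ler were 0.32 for both genes with replicate 1, and 0.72 and 0.63 without it (limma, adjusted p = 0.416 and 0.169).

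HSP21 (AT4G27670), the chloroplast small heat shock protein, ran from 2.88 in NILDOG1 replicate 2 to 4.26 in NILDOG1 replicate 3. Its means were 3.42 ± 0.41 in Ler, 3.43 ± 0.53 in NILDOG1 (SD, n = 5 each), 3.17 ± 0.12 in NILDOG2, 3.79 ± 0.27 in NILDOG3 and 3.45 ± 0.43 in NILDOG6 (SD, n = 3 each). No genotype pair but NILDOG3 and NILDOG2 separated for HSP21 with all arrays, and its NILDOG6 difference from Ler was 0.02 with replicate 1 and 0.26 without it (limma, adjusted p = 0.978 and 0.630). The mitochondrial HSP23.6-MITO (AT4G25200) was at 8.13, 10.38, 9.28, 8.01 and 8.83 in Ler and at 9.41, 8.90, 10.59, 9.32 and 7.28 in NILDOG1. It was at 8.52, 7.30 and 7.83 in NILDOG2, 9.89, 10.14 and 9.66 in NILDOG3, and 7.24, 9.81 and 10.04 in NILDOG6. The array labelled NILDOG6 replicate 1 gave the lowest HSP23.6-MITO value of the 19 arrays, and its sister replicates were among the highest. The NILDOG6 difference from Ler was 0.10 with that array and 1.00 without it (SE 0.65 and 0.63), and neither passed (limma, adjusted p = 0.954 and 0.353).

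ATHSP22.0 (AT4G10250), the endoplasmic reticulum protein, was lowest in NILDOG2. It was at 7.06, 9.16, 8.45, 7.03 and 7.91 in Ler and at 8.68, 8.35, 10.04, 8.63 and 5.77 in NILDOG1. It was at 5.60, 4.68 and 5.70 in NILDOG2, 8.73, 9.62 and 8.67 in NILDOG3, and 5.30, 8.86 and 8.59 in NILDOG6. The 3 NILDOG2 arrays lay below every Ler, NILDOG1 and NILDOG3 array, and the only other arrays under 7 were NILDOG1 replicate 5 and NILDOG6 replicate 1. Its range over the 19 arrays, 5.36, was larger than that of 99.96% of the genes. The NILDOG6 difference from Ler turned from -0.34 with replicate 1 to 0.80 without it (limma, adjusted p = 0.865 and 0.550).

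Each NIL was then compared with Ler to ask whether the DOG introgressions went with a changed level of the seed heat shock genes. The 4 comparisons share the Ler arrays. A gene was called at an adjusted p under 0.05. None of the 10 genes was called in NILDOG1, NILDOG2, NILDOG3 or NILDOG6 (limma, adjusted p under 0.05), where 1.17%, 0.305%, 2.88% and 2.36% of all genes were called. At an unadjusted p under 0.05 the counts were 1, 1, 1 and 0, for HSFA9 in NILDOG1 and NILDOG3 and ATHSP22.0 in NILDOG2, where 10.9%, 6.78%, 17.1% and 18.8% of all genes had such a p. Leaving out NILDOG6 replicate 1 gave 1, 2, 1 and 3 of the 10, beside 12.0%, 7.43%, 18.3% and 24.3% of all genes. The median difference over the 10 genes was 0.08 in NILDOG1, -0.37 in NILDOG2, 0.59 in NILDOG3 and 0.17 in NILDOG6, beside medians over all genes of 0.02, -0.00328, 0.01 and 0.01. With NILDOG6 replicate 1 left out, the NILDOG6 median was 0.68, 10 of 10 differences were positive, and still none was called, where 8.39% of all genes were. With all arrays, no member separated from Ler in NILDOG1, NILDOG3 or NILDOG6, where 2.14%, 11% and 8.09% of all genes did, and without NILDOG6 replicate 1 only HSP17.6A did in NILDOG6, lying above Ler as 11.4% of all genes did. In NILDOG1, 9 of the 10 differences changed sign in at least 1 of 28 alternative settings, 7 of them when NILDOG1 replicate 3 was left out.

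**Figure D2:**
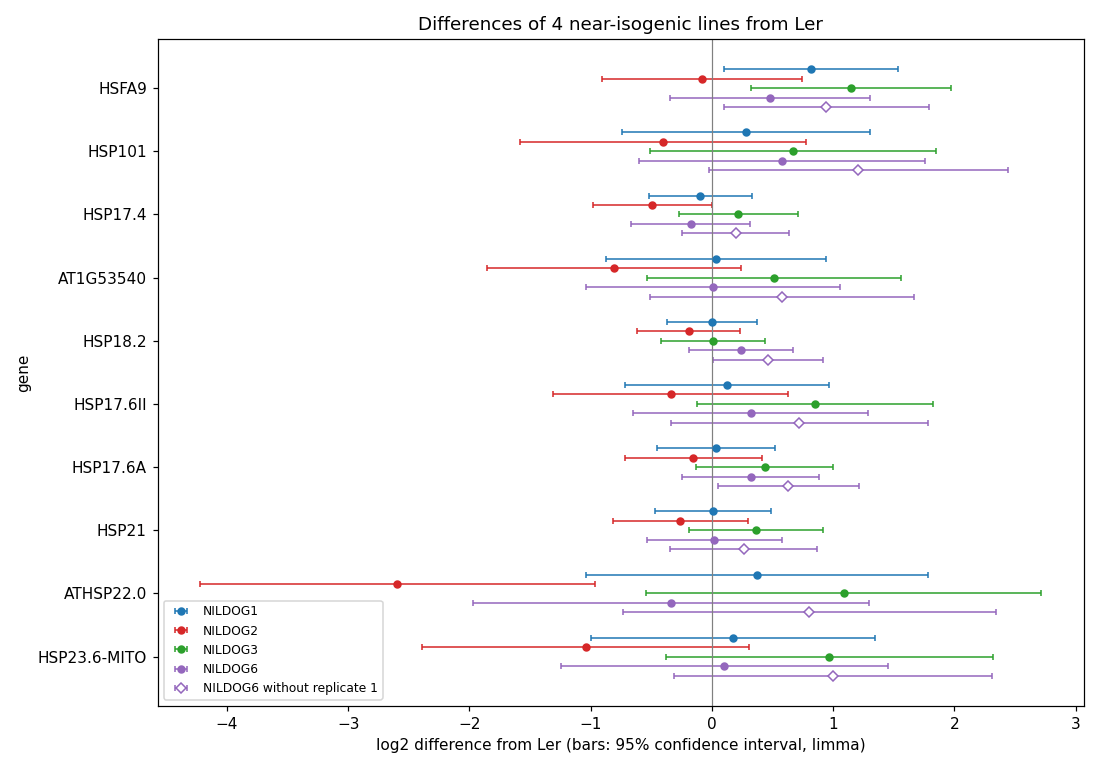
Difference of each NIL from Ler on the log2 scale (x axis) for the 10 genes (y axis), with 95% confidence intervals from limma; open diamonds leave out the array labelled NILDOG6 replicate 1. All 10 NILDOG2 differences lie below 0 and all 10 NILDOG3 differences above 0, with most intervals crossing 0.

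The NILDOG2 difference of ATHSP22.0 from Ler was -2.59 (SE 0.78, 95% confidence interval -4.23 to -0.96), a level 6.04-fold lower, and did not pass with all arrays sharing the spread (limma, adjusted p = 0.298). Its NILDOG2 arrays lay below all Ler arrays, which held for 1 of the 10 genes and for 2.87% of all genes. A fit of NILDOG2 and Ler alone called it (limma, adjusted p = 0.0355), where 0.333% of all genes were called. The moderated F test over the 5 genotypes called none of the 10 genes, where 6.39% of all genes were called, and 2 had an unadjusted p under 0.05, as had 21.9% of all genes (for ATHSP22.0, limma, adjusted p = 0.0635). It called ATHSP22.0 without NILDOG6 replicate 1 (limma, adjusted p = 0.0106), where 9.91% of all genes were called. The negative NILDOG2 differences of HSFA9 and HSP101 from Ler turned positive without Ler replicate 2, and that of HSFA9 also with array weights and without NILDOG2 replicate 2.

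Among the 6 pairs of NILs, NILDOG3 and NILDOG2 had the largest median difference with all arrays, 1.13 over the 10 genes. ATHSP22.0 was higher in NILDOG3 by 3.68 (SE 0.87, 95% confidence interval 1.86 to 5.50), a 12.8-fold difference that passed (limma, adjusted p = 0.0224). It was the only 1 of the 10 called there, where 3.2% of all genes were called, 1.04% as higher. The other 9 differences were positive, from 0.20 for HSP18.2 to 2.01 for HSP23.6-MITO. In 9 of the 10 genes every NILDOG3 array lay above every NILDOG2 array, which held for 13.8% of all genes. ATHSP22.0 was also lower in NILDOG2 than in NILDOG1, by a difference of -2.97 (SE 0.78; limma, adjusted p = 0.0464), where 2.56% of all genes were called, 1.15% as lower. NILDOG2 lay below NILDOG1 without overlap in 2 of the 10 genes, HSFA9 and ATHSP22.0, and in 5.87% of all genes.

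These were 2 calls among 60 gene-by-pair values. The first was lost when any 1 array of NILDOG2 or NILDOG3 was left out (limma, adjusted p = 0.0536 to 0.135), and the second when any 1 of 13 arrays was left out (limma, adjusted p = 0.0519 to 0.271). Both held without NILDOG6 replicate 1, which enters them only through the shared spread (limma, adjusted p = 0.00434 and 0.0112), where 4.57% and 3.54% of all genes were called, 1.48% as higher and 1.51% as lower. No member was called between NILDOG3 and NILDOG1 (0.732% of all genes were), NILDOG6 and NILDOG1 (2.6%), NILDOG6 and NILDOG2 (1.66%) or NILDOG6 and NILDOG3 (0.455%) with all arrays. At an unadjusted p under 0.05 the counts in these 4 pairs were 0, 0, 1 and 0, beside 8.74%, 16.4%, 16.4% and 12.1% of all genes, and without NILDOG6 replicate 1 they were 0, 2, 8 and 0, beside 9.66%, 18.6%, 21.8% and 11.8%. For NILDOG3 and NILDOG2 the count was 7 of 10, beside 15.9% of all genes, and for NILDOG2 and NILDOG1 it was 2, beside 14.7%.

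**Figure D3:**
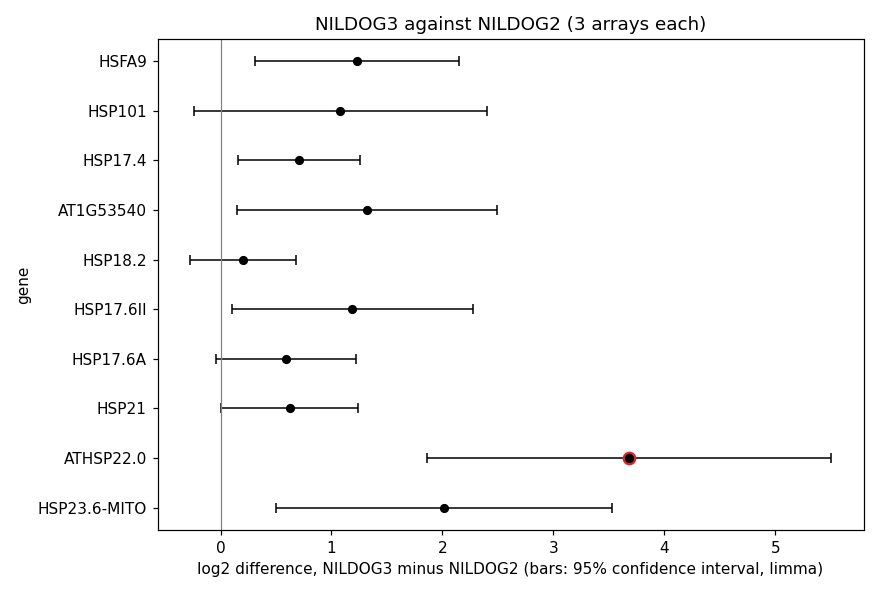
NILDOG3 minus NILDOG2 on the log2 scale (x axis) for the 10 genes (y axis), with 95% confidence intervals from limma (3 arrays each). The larger red point, ATHSP22.0 at 3.68, passed at an adjusted p under 0.05.

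The NILDOG6 comparisons changed with its replicate 1. With it, NILDOG6 and NILDOG2 overlapped in all 10 genes, where 18.9% of all genes separated. Without it, both remaining NILDOG6 arrays lay above all NILDOG2 arrays in 10 of 10 genes, as in 20.1% of all genes, and the ATHSP22.0 difference of 3.40 (SE 0.80) passed (limma, adjusted p = 0.0155), where 6.78% of all genes were called, 2.5% as higher. NILDOG6 lay below NILDOG3 in HSFA9 and HSP17.4 with all arrays, as 8.83% of all genes did. Without replicate 1 it still did in these 2 genes and lay above NILDOG3 in HSP101, HSP17.6A and HSP18.2, as 16.1% and 14.4% of all genes did, with none called (0.802% of all genes were). Against NILDOG1, NILDOG6 separated in no member with all arrays (8.34% of all genes did) and lay above it in HSP17.6A and HSP18.2 without replicate 1 (9.05% of all genes did), with none called (3.55% of all genes were). NILDOG3 and NILDOG1 overlapped in all 10 genes, where 7.25% of all genes separated.

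Ordered by their means, HSFA9 ran from NILDOG3 through NILDOG1, NILDOG6 and Ler to NILDOG2, and no difference between neighbours in that order passed the test. For ATHSP22.0 the order was NILDOG3, NILDOG1, Ler, NILDOG6 and NILDOG2, again with no call between neighbours. In both genes NILDOG6 moved up to second place without its replicate 1, with means of 8.68 and 8.73. The share of a gene's variance that lay between genotypes had a median of 23.7% over the 10 genes and 29.5% over all genes, and among the 10 it was largest for ATHSP22.0 (52.1%) and HSFA9 (42.3%). The median SD within genotypes was 0.68 over the 10 genes and 0.217 over all genes. The spread over all genotypes was thus wider for these genes than for the typical gene.

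The arrays that were high or low for HSFA9 were often, but not always, high or low for the heat shock protein genes. In Ler, replicate 2 had the highest HSFA9 level and also the highest level of all 9 heat shock protein genes, and replicate 1, lowest for HSFA9, was lowest for 5 of 9. In NILDOG1, replicate 3 was highest for HSFA9 and for 8 of the 9, and replicate 5 was lowest for HSFA9 and for 6 of 9, among them ATHSP22.0 at 5.77 against 8.35 or more in the other NILDOG1 arrays. The highest HSFA9 array of NILDOG2, replicate 3, was highest for 3 of 9, and the lowest, replicate 2, was lowest for 8 of 9. In NILDOG3 the counts were 7 of 9 for the highest and 4 of 9 for the lowest array. The NILDOG6 counts were 4 of 9 for the highest array, replicate 3, and 9 of 9 for the lowest, the array labelled replicate 1. Near ties in HSFA9 decided some of these highest and lowest arrays. Ler replicates 1 and 4 had 6.926 and 6.930, and NILDOG2 replicates 3 and 1 had 7.848 and 7.837. NILDOG6 replicates 3 and 2 had 8.690 and 8.676.

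To ask how far the heat shock protein genes varied with HSFA9 from array to array, the HSFA9 level was entered as a covariate beside a mean for each genotype. All 9 heat shock protein genes were called (limma, adjusted p = 6.31e-06 to 0.00516), each with a positive slope. Of all other genes, 12.5% were called, 5.36% with a positive and 7.11% with a negative slope, and 3 of the 9 passed at an adjusted p under 1e-04, as 0.699% of all other genes did. The slope, in log2 units of the gene for 1 log2 unit of HSFA9, was 1.72 for ATHSP22.0 (SE 0.24), 1.33 for HSP101 (SE 0.14), 1.11 for AT1G53540 (SE 0.15) and 1.01 for HSP17.6II (SE 0.15), with HSP23.6-MITO between ATHSP22.0 and HSP101. It was 0.52 for HSP17.6A (SE 0.11), 0.49 for HSP21 (SE 0.11), 0.48 for HSP17.4 (SE 0.09) and 0.39 for HSP18.2 (SE 0.08). The mean levels of HSP17.6A and HSP17.4 were each above those of 99.9% of genes. Those of HSP21 and HSP18.2 were above 32.3% and 41.5%, and that of HSP17.6II above 48.3%. Whether very high or low levels narrowed the slopes or ranges of these genes was not tested. All 9 remained called without NILDOG6 replicate 1, with slopes from 0.37 to 1.48, where 8.74% of all other genes were, 4.11% with a positive slope. Without Ler replicate 2, 7 of the 9 were called, HSP21 and HSP18.2 giving adjusted p = 0.0624 and 0.0914 (limma), where 6.63% of all other genes were called, 2.83% with a positive slope.

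**Figure D4:**
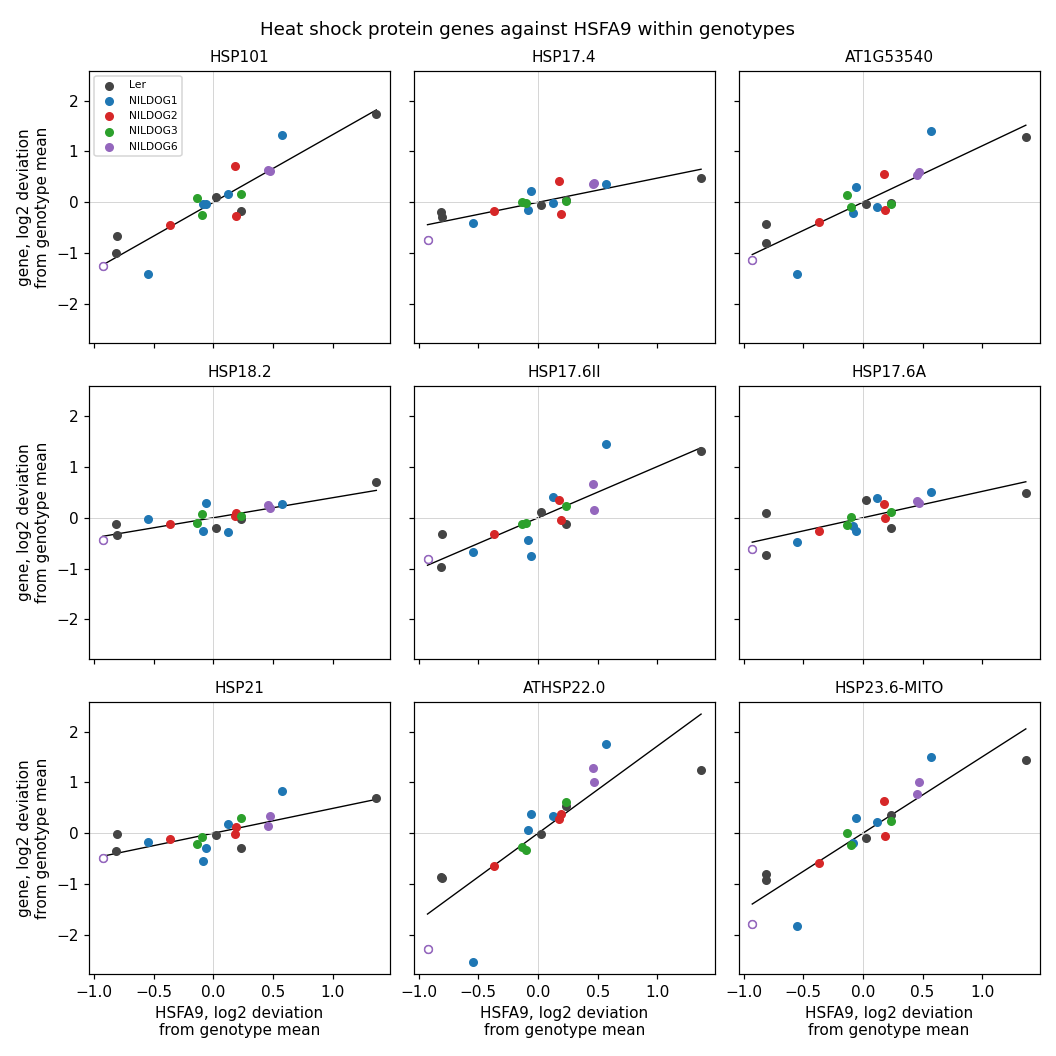
Each heat shock protein gene (y axis) against HSFA9 (x axis) as log2 deviations from the genotype mean; points are the 19 arrays, the open point is the array labelled NILDOG6 replicate 1, and lines have the fitted slopes, from 0.39 for HSP18.2 to 1.72 for ATHSP22.0.

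As a description over the 19 arrays, which share the Ler and NIL genotypes and the normalization, Pearson's r of HSFA9 with the 9 genes ran from 0.64 (HSP18.2) to 0.86 (HSP23.6-MITO) and Spearman's rho from 0.67 to 0.88. With genotype means removed r was 0.75 to 0.92, and 0.69 to 0.90 when NILDOG6 replicate 1 was also left out. Without Ler replicates 1 and 4, the arrays farthest from the median HSFA9 level, the pooled r was 0.63 to 0.90. The 45 pairs among the 10 genes gave r from 0.50 (HSP17.6A with HSP18.2) to 0.97 (AT1G53540 with HSP23.6-MITO), with a median of 0.80. Other genes were closer to HSFA9 than its fellow members: HSP23.6-MITO, the closest of the 9, had rank 183 of 21312 genes by r.

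The 5 genes outside the 10 most like HSFA9 by r over the 19 arrays were AT3G22490 (0.97), AT1G54860 (0.97), AT2G34740 (0.96), AT1G08170 (0.96) and AT2G25625 (0.96), none of them in a heat stress list. The 5 outside the 10 most like the median of the 9 heat shock protein genes were AT1G52560 (a small heat shock protein gene, 0.97), HSA32 (heat acclimation, 0.97), Hsp70b (0.97), AT2G29500 (a small heat shock protein gene, 0.97) and HSP90.1 (0.95). All 5 of the latter were in the lists of heat stress genes.

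Some other measures of the arrays moved with these genes. The summed log2 level of the 9 seed markers was 120.8 to 122.3 in Ler, 121.4 to 123.0 in NILDOG1, 122.0 to 122.5 in NILDOG2, 122.6 in each array of NILDOG3 and 120.8 to 122.9 in NILDOG6 (122.7 and 122.9 without replicate 1), and its r over the 19 arrays was 0.68 with HSFA9 and 0.55 with the median of the 9 heat shock protein genes. The median of all genes on an array, from 4.63 to 4.92, gave r of -0.65 and -0.53, and CA1 gave 0.50 and 0.63. The spread of an array around the typical array gave 0.07 and 0.23. The part of these measures in the array-to-array differences was not tested. With each array centred on its median, 9 of 9 genes were called, where 12.9% of all other genes were, 8.15% with a positive slope. Replicates 4 and 5 of Ler and NILDOG1 differed from replicates 1 to 3 by a median of -0.43 over the 10 genes, negative in 9, with none called (2.15% of all genes were), and with 2 at an unadjusted p under 0.05, as 17.57% of all genes were.

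Of 58 other heat stress genes measured, 1 was called against Ler in NILDOG1, none in NILDOG2, 3 in NILDOG3 and 2 in NILDOG6 (4 without NILDOG6 replicate 1), beside the 1.17%, 0.305%, 2.88% and 2.36% (8.39%) of all genes. Of 8 other small heat shock protein genes measured, none was called in any NIL, with medians of 0.10, -0.50, 0.20 and -0.12 in NILDOG1, NILDOG2, NILDOG3 and NILDOG6, the last turning to 0.22 without NILDOG6 replicate 1. Of 19 other heat stress transcription factors, HSF A4A rose in NILDOG1 by 0.60 (SE 0.14; limma, adjusted p = 0.0413) and HSFC1 rose in NILDOG3 by 0.86 (SE 0.21; limma, adjusted p = 0.032). Of 14 HSP70 genes, AT3G09440 fell in NILDOG3 and in NILDOG6, with differences of -1.76 and -1.63 (SE 0.32 each; limma, adjusted p = 0.00556 and 0.0149), and AT1G11660 fell in NILDOG6 (-0.61; limma, adjusted p = 0.0456). AT3G09440 was at 7.50 to 8.56 in Ler, 6.51 to 7.91 in NILDOG1, 7.42 to 8.43 in NILDOG2, 5.99 to 6.43 in NILDOG3 and 5.90 to 7.17 in NILDOG6. Without NILDOG6 replicate 1 the NILDOG6 differences were -2.05 for AT3G09440 and -0.68 for AT1G11660 (limma, adjusted p = 0.000881 and 0.0276). Of 5 HSP90 genes, HSP81-2 fell in NILDOG3 (-0.63, SE 0.15; limma, adjusted p = 0.0257). None of 10 other heat stress response genes, of 5 seed maturation regulators, or of the 2 other HSP100 genes was called against Ler with all arrays, while without NILDOG6 replicate 1 the HSP100 gene CLPB4 passed in NILDOG6 (0.99; limma, adjusted p = 0.0343), as did HSFA8 (-0.91; limma, adjusted p = 0.0181). Of the 9 seed markers only EM1 passed in NILDOG3 and NILDOG6 in that fit (0.65 and 0.64; limma, adjusted p = 0.0286 and 0.0441). The shares of all genes called there were 4.48% and 8.39%.

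Within genotypes, the same lists had called slopes on HSFA9 in differing numbers, beside the 5.36% of all other genes with a called positive and the 7.11% with a called negative slope. Of the 8 other small heat shock protein genes 5 had a called positive slope and 1 a called negative slope. The negative one was AT4G21870 (-0.58, SE 0.16; limma, adjusted p = 0.017), named after its value was seen. Of 10 other heat stress response genes 7 were called, all positive, HSA32 having a slope of 0.95 (SE 0.09; limma, adjusted p = 2.18e-06). Of 14 HSP70 genes 3 were called positive, among them Hsp70b with 1.35 (SE 0.15; limma, adjusted p = 1.46e-05), and 2 negative, and of 5 HSP90 genes HSP90.1 was positive (1.22, SE 0.14; limma, adjusted p = 1.86e-05) and 1 was negative. Of 19 other heat stress transcription factors 3 were called, all positive with all arrays, and of 5 seed maturation regulators 1, FUS3 (0.50; limma, adjusted p = 0.0371). The calls of AT4G21870, AT3G09440, HSFA1E and FUS3 were lost without NILDOG6 replicate 1, and AT-HSFA7B (0.42) and HSFB4 (-0.49) were then called (limma, adjusted p = 0.0119 and 0.0261), these being named after their values were seen. Of the 9 seed markers 1 was called, GEA6, with a slope of 0.34 (limma, adjusted p = 0.00388) and of 0.42 without NILDOG6 replicate 1, where HSP18.2 and HSP17.4 had slopes of 0.37 each.

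The order of the genes on the chromosomes was read from the RefSeq table of TAIR10.1. The 10 genes lay on chromosomes 1 (HSP101, AT1G53540), 3 (HSP17.4), 4 (HSP21, ATHSP22.0, HSP23.6-MITO) and 5 (HSFA9, HSP17.6II, HSP17.6A, HSP18.2). Of the 100 measured genes nearest to ATHSP22.0, 50 on each side, none was called in NILDOG2 against Ler. Around HSP21 8 of 100 neighbours were called in NILDOG3 and 2 in NILDOG2, where 2.88% and 0.305% of all genes were called. Around HSP17.4 5 of 100 were called in NILDOG6, and 12 without NILDOG6 replicate 1, where 2.36% and 8.39% of all genes were. This was not particular to HSP17.4. The same 2 counts were 6 and 10 around AT1G53540 on chromosome 1, and 2 and 13 around HSP18.2 on chromosome 5. Around HSFA9 1 of 100 was called in NILDOG1 and 3 in NILDOG3, where 1.17% and 2.88% of all genes were.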

How the data were processed

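RNA of dormant, 24-h imbibed seeds was hybridized to 19 ATH1 GeneChips, whose number limits the precision. The authors normalized the arrays with RMA and deposited log2 values, 1 row for each of 21313 AGI codes. Samples were grouped by genotype from the labels, whose titles and protocol give imbibed seeds while another field speaks of dry seeds. Symbols were looked up in RefSeq (assembly TAIR10.1; 21205 codes matched), and the files name no build, so no coordinates are given.

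A linear model of the 5 genotype means was fitted to all arrays with limma 3.58.1 in R 4.3.3 (lmFit, eBayes), with no filter, and p-values were Benjamini-Hochberg adjusted over all genes and called under 0.05. Further fits used HSFA9 as a covariate, the moderated F test, the NIL pairs, and replicates 4 and 5 against 1 to 3. Tables were made in Python 3.11.15. On simulated data the fit against Ler recovered 82% to 93% of genes changed by 1 on the log2 scale, with 4 to 12 false calls. The genes changed there were drawn from all genes, whose median spread is narrower than that of the members, so this share is no measure of the power for the members. Whether probes lay above background was not tested.

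The members and lists were chosen with earlier results of these data known. Named were all 10 members, in each NIL up to 2 rises and 2 falls among called list genes, the 5 genes most like HSFA9 and the 5 most like the median heat shock protein gene. A few others were named after their values were seen. Alternatives were other thresholds, a filter on low values, centring, quantile normalization, a prior trend, array weights, a replicate block or set term, fewer genotypes and leaving out each array.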

Additional observations from a re-analysis of the deposited data

How the results depend on the processing

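No member was called in NILDOG6 against Ler, or in replicates 4 and 5 against 1 to 3, under any alternative run. Against Ler, 1 member was called in NILDOG2 with the replicate block and with NILDOG2 and Ler fitted alone (ATHSP22.0), where 0.985% and 0.333% of all genes were called, and 1 in NILDOG3 with array weights (HSFA9), where 8.24% were, and with arrays left out in turn the count was 0 to 1 in NILDOG1 and NILDOG3, the 1 being HSFA9 without Ler replicate 2. The F test called 1 member (ATHSP22.0) with the low filter, the prior trend, the replicate block, the replicate set term and replicates 1 to 3 only, 2 with array weights (HSFA9 added), and 0 to 2 with arrays left out in turn, while the share of all genes it called was 6.39% with all arrays and 6.44% to 12.5% in those 6 settings. The NIL pairs gave 2 calls, and 0 at an adjusted p under 0.01 and under 1e-04. With array weights they gave 5, where 8.99% of all genes were called between NILDOG3 and NILDOG2 and 6.25% between NILDOG2 and NILDOG1. Leaving out arrays in turn gave 0 to 3. The shares of all genes called were then 0.995% to 4.57% and 0.807% to 3.54% in these 2 pairs. The HSFA9 covariate called 3 of 9 at an adjusted p under 1e-04, as 0.699% of all other genes. With arrays left out in turn it called 7 to 9, where 6.63% to 13.4% of all other genes were called. The 2 settings chosen after seeing the data were without the 2 arrays farthest in HSFA9 and with NIL arrays only. They called 9 and 8, where 7.60% and 4.33% of all other genes were called, 3.36% and 1.96% with a positive slope. Plants were grown in blocks, but the sources do not say that a replicate number marks a block, and correlations of same-numbered arrays' deviations from the group means ran from -0.30 to 0.37, so the data did not settle whether the numbers pair the samples. With the replicate block the ATHSP22.0 difference of NILDOG2 from Ler was -3.11 (limma, adjusted p = 0.0453). This call was not made with the replicate set term or with replicates 1 to 3 only. With the block the 2 ATHSP22.0 calls among the NILs stayed. Of all genes, 4.39% were then called between NILDOG3 and NILDOG2 and 7.53% between NILDOG2 and NILDOG1. The 9 of 9 covariate calls also stayed with the block, where 6.53% of all other genes were called. The cause of these changes was not tested. Precision is limited by 3 to 5 arrays a genotype and by the wide spread within genotypes.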
